A study of Mus musculus with 18 samples.

Results

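Here the messenger RNAs of 10 CC chemokines, *Ccl2*, *Ccl3*, *Ccl4*, *Ccl5*, *Ccl7*, *Ccl8*, *Ccl9*, *Ccl11*, *Ccl19* and *Ccl20*, were followed in mouse fibroblasts of 3 organs before and after transplantation. The genes were a given list, chosen with earlier results of these data known. They were matched by symbol to the 38924 Ensembl genes of the count table, where all 10 were found. All 10 passed the filter on low counts that left 16577 genes for testing. Fibroblasts of the heart (HF), kidney (KF) and tail (TF) came from male Rosa mT/mG mice on a C57BL/6 background, aged 10 weeks, whose cells carry the red fluorescent reporter TdTomato, and were grown for 10 days in culture. Between 400000 and 500000 cells on a gelatin foam were placed beneath the capsule of the kidney in syngeneic C57BL6/J recipients aged 10 to 11 weeks. After 3 days the CD45-;TdTomato+ cells were sorted from the graft (HFs, KFs and TFs), and cells of the same origin kept in culture for as long served as controls (HFc, KFc, TFc). There were 3 libraries of total RNA in each of 6 groups, and the comparison asks which responses of fibroblasts to an injured, inflamed site depend on the organ that they came from. All groups share the reporter genotype and the first 10 days in culture, and every graft sat in the kidney whichever organ the cells came from. The controls were replated and stayed in culture for the 3 further days. Recovery from tissue and the CD45-;TdTomato+ sort are described for the grafts only. In the transplant comparisons, effects of the graft site and of these steps cannot be told apart. The gate removes cells with surface CD45 and keeps any other reporter-positive cell of the culture, since the label is not restricted to fibroblasts. The study calls the libraries of a condition biological replicates, but the sources used here do not tie them to separate animals or cultures, and p-values measure only the spread between these libraries.

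Chemokines are small secreted proteins that draw leukocytes along a gradient, and the CC class is named for the adjacent pair of cysteines near the start of the mature protein. Each acts through G protein-coupled receptors on the responding cell, and most receptors take several ligands. In injured tissue, fibroblasts are a known source of CC chemokines, whose genes are induced by interleukin 1, tumour necrosis factor, toll-like receptors and interferons through NF-kappaB, AP-1 and STAT factors.

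The coding sequence around the cysteine pair is shown for each gene because it is the feature that defines the class and because the likeness of the genes bears on how far short reads can tell them apart. The sequences are 42 bases of the GRCm38 reference, read 5′ to 3′ on the coding strand, with the codons of the adjacent cysteines in capitals.
Ccl2: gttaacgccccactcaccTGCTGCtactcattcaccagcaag
Ccl7: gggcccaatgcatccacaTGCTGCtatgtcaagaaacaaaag
Ccl8: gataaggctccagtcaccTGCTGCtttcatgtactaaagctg
Ccl11: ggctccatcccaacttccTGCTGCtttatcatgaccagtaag
Ccl5: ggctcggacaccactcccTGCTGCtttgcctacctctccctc
Ccl3: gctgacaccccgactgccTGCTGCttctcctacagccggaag
Ccl4: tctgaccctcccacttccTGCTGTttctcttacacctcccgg
Ccl9: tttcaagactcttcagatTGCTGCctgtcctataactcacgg
Ccl19: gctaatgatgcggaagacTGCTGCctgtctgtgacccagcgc
Ccl20: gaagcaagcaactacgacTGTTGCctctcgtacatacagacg

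The pair was found once in each of the 10 coding sequences. The *Ccl2* stretch lies in exon 2 of 3 at chr11:82036488-82036529, and the stretches of *Ccl8*, *Ccl11* and *Ccl20* begin in exon 1 and run across the first splice junction. Over the whole coding sequence, the most alike pairs were *Ccl3* with *Ccl4* and *Ccl7* with *Ccl11*, each with 67% of aligned bases identical, followed by *Ccl2* with *Ccl11* at 66.3%. The least alike were *Ccl8* and *Ccl19*, at 47.8%. Despite this likeness, none of the 75-base stretches of *Ccl2*, *Ccl3*, *Ccl4*, *Ccl5*, *Ccl7*, *Ccl8*, *Ccl9*, *Ccl11* or *Ccl20* occurred in the transcripts of another gene, so a read of that length without error is particular to 1 of them. For *Ccl19*, 45.3% of the stretches also occurred in *Gm2564*, *Ccl19-ps1*, *Ccl19-ps3* or *Gm12407*, and its counts are therefore uncertain.

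8 of the genes lie on chromosome 11 of GRCm38, in 2 groups 1.41 Mb apart. *Ccl2*, *Ccl7*, *Ccl11* and *Ccl8* occupy chr11:82035571-82116799, a span of 81.2 kb, and *Ccl5*, *Ccl9*, *Ccl3* and *Ccl4* occupy chr11:83525778-83664683, a span of 139 kb. *Ccl19* lies at chr4:42754525-42756577 and *Ccl20* at chr1:83116766-83119167.

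The library totals lay between 17927838 and 32245168 counts. Levels are given as CPM, the counts of a gene relative to a fixed number of counts in the library, with no further scaling. TMM factors of 0.903 to 1.15 entered only the tests, the count ratios and the lower bounds of *Ccl19*. A gene at 3 counts or fewer in a library was treated as not distinguishable from 0, a floor that corresponded to between 0.093 and 0.167 CPM and covers counting error only. Tests are edgeR's quasi-likelihood tests over all genes, with Benjamini-Hochberg adjustment. A gene was called in a transplant comparison at an adjusted p under 0.05 where its log2 fold change also lay beyond 1 in either direction, and in a comparison of organs or of responses at an adjusted p under 0.05. The library labelled KFs replicate 3 went against the male donors, with 1716 CPM of *Xist* where no other library exceeded 0.396 CPM, and with 0.83 CPM of Y-linked genes against 174 to 222 CPM elsewhere. It had the lowest *Ccl5*, *Ccl7*, *Ccl8*, *Ccl9* and *Ccl11* of the KFs libraries, and the main results that rest on KFs are therefore also given without it. Fibroblast genes were present in every library and none of the 8 listed was at the floor throughout any group, with a summed level of 12386 to 15141 CPM in culture and 20528 to 111022 CPM after transplantation. Most of this sum was *Col1a1*, *Col1a2* and *Col3a1*, and the listed genes did not all rise. *Thy1* had mean levels of 119.8 CPM in HFc and 30.6 in HFs, 68.1 in KFc and 54.8 in KFs, and 252.8 in TFc and 158.3 in TFs. It was called lower in HFs (-1.91 ± 0.27, adjusted p = 2.83e-05), and *Pdgfrb* was not called in any organ.

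Transplanted cells of each organ had more RNA of some of these CC chemokines than their cultured controls, and the number called was largest in the tail. In TFs, 7 of the 10 were higher than in TFc and none lower, where 11% of all genes tested were called higher and 5.53% lower (16.5% in either direction). In HFs, 5 were higher than in HFc and none lower, against 18.3% of all genes called higher and 9.33% lower (27.7% in either direction). In KFs, 2 were higher than in KFc and 1 lower, where 14.7% of all genes were called higher and 7.99% lower (22.6% in either direction). When KFs replicate 3 was left out, 3 were higher in KFs, *Ccl5*, *Ccl8* and *Ccl11*, and none was lower. The median log2 fold change of the 10 was 3.68 in TFs, 1.33 in HFs and 0.58 in KFs, beside 0.00, 0.05 and 0.09 over all genes tested, and that in KFs was 0.72 without KFs replicate 3. The values over all genes are given for scale. They do not test the list, which was chosen with earlier results of these data known. *Ccl8* and *Ccl11* were called higher in all 3 organs, *Ccl5* and *Ccl19* in HFs and TFs, *Ccl7* in HFs, and *Ccl2*, *Ccl9* and *Ccl20* in TFs. These are levels in RNA of bulk samples, in which more expressing cells and more RNA per cell cannot be told apart.

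**Figure D1:**
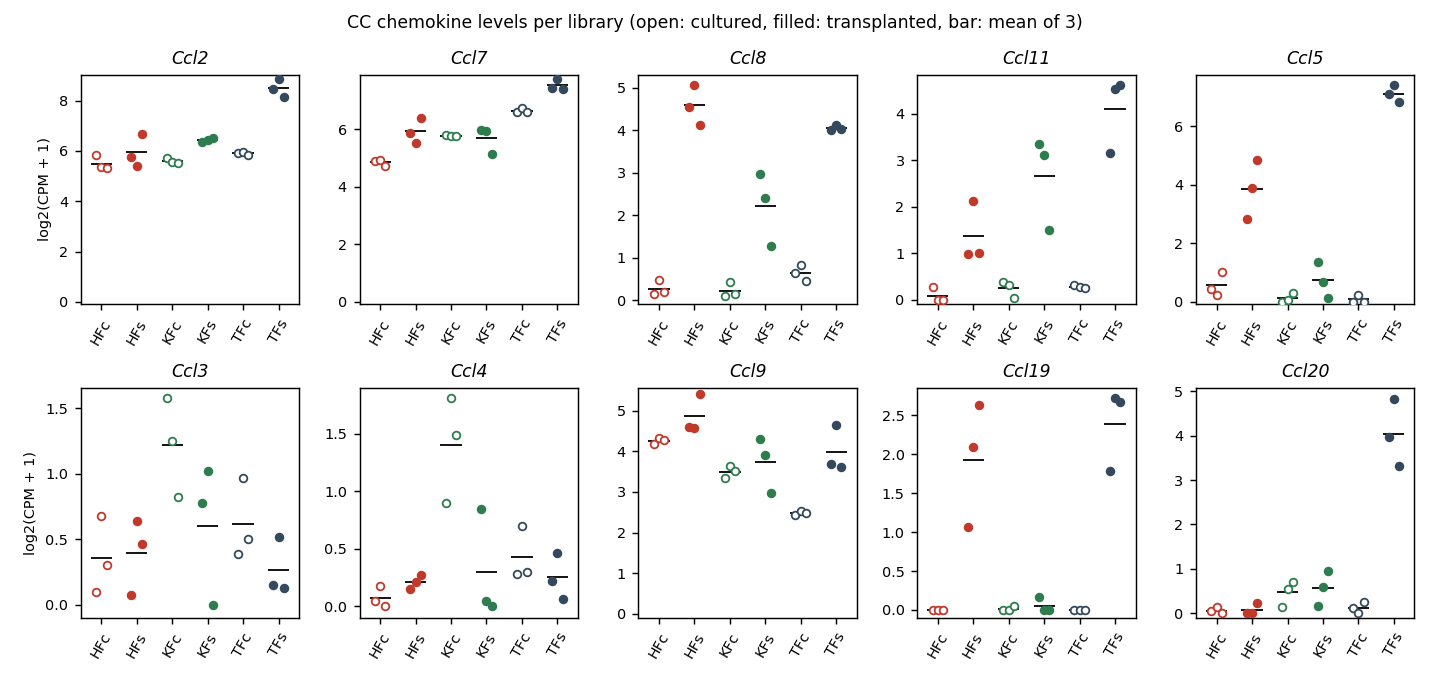
Level of each of the 10 genes as log2(CPM + 1) in each library of the 6 groups, with open points for cultured and filled points for transplanted cells, a bar at the mean of 3 libraries and a separate vertical scale for each gene. The filled points of *Ccl8* and *Ccl11* lie above the open points in all 3 organs, those of *Ccl20* only in the tail, and *Ccl4* was highest in KFc.

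Compared per length of exon, *Ccl2* and *Ccl7* together made up most of the RNA of these 10 genes in every library but HFs replicate 2, where they supplied 19.4% and 30.4%. The summed level was 81.7 ± 8.84 CPM per kb (SD, n = 3) in HFc, 117 ± 3.53 in KFc and 181 ± 10.6 in TFc, and *Ccl2* and *Ccl7* supplied 47.8% and 42.9% of it in HFc, 35.3% and 57.3% in KFc, and 28.8% and 68.9% in TFc. After transplantation the sum was 215 ± 54.6 CPM per kb in HFs, 161 ± 27.3 in KFs and 769 ± 153 in TFs. The sums of transplanted and cultured libraries did not overlap in any organ, and the lowest TFs library, at 645 CPM per kb, held more than the highest HFs library, at 277. The makeup changed too. *Ccl2* and *Ccl7* now supplied 26.0% and 36.1% of the sum in HFs, 48.0% and 39.8% in KFs, and 41.4% and 30.6% in TFs. *Ccl8* supplied 23.4% of the sum in HFs but 4.06% in TFs and 4.83% in KFs, and *Ccl5* supplied 18.9% in TFs, 7.31% in HFs and 0.453% in KFs. *Ccl3* and *Ccl4* supplied at most 1.52% and 2.24%, both in KFc.

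**Figure D2:**
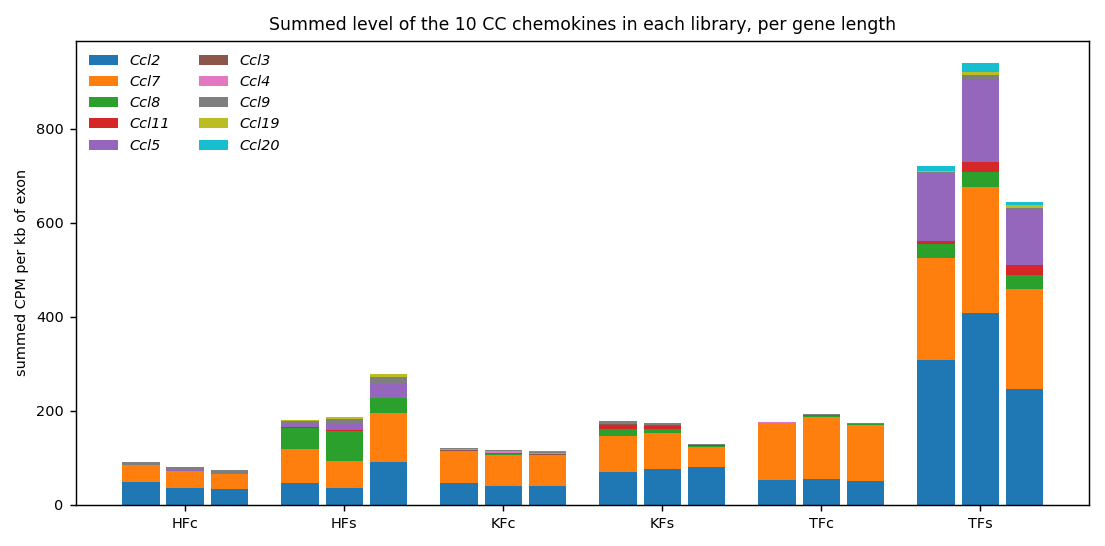
Summed level of the 10 genes in CPM per kb of exon in each of the 18 libraries, stacked by gene, with 3 bars per group. The TFs bars reach 645 to 940 CPM per kb, and the largest segments are *Ccl2*, *Ccl7* and *Ccl5*, and on average the segments of *Ccl7*, *Ccl8*, *Ccl2* and *Ccl5* are all larger in HFs than in HFc.

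*Ccl2* (ENSMUSG00000035385), the main attractant of monocytes through the receptor Ccr2, was present in every library. It had 55.5, 39.6 and 39.0 CPM in HFc, 51.6, 45.5 and 44.4 in KFc, and 59.3, 62.0 and 57.0 in TFc. After transplantation it had 53.5, 41.0 and 102 CPM in HFs, 79.8, 86.0 and 90.4 in KFs, and 351, 463 and 279 in TFs. The TFs libraries lay far above all others, the KFs libraries lay above KFc, and the HFs and HFc libraries overlapped. The log2 fold change was 2.61 ± 0.27 (SE) in TFs (adjusted p = 3.2e-06). It was 0.81 ± 0.26 in KFs (adjusted p = 0.0167), which passed the p threshold but not the fold limit, and 0.80 without KFs replicate 3. In HFs it was 0.61 ± 0.26 (adjusted p = 0.0540).

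*Ccl7* (ENSMUSG00000035373), a further monocyte attractant that also binds Ccr2, differed between organs already in culture. It had 28.7, 29.8 and 25.4 CPM in HFc, 54.5, 53.4 and 53.3 in KFc, and 96.8, 107 and 96.3 in TFc. After transplantation the values were 58.1, 45.3 and 83.7 CPM in HFs, 61.4, 61.3 and 34.0 in KFs, and 174, 216 and 171 in TFs. The transplanted libraries lay above the cultured ones in heart and tail and overlapped with them in kidney. *Ccl7* rose by 1.21 ± 0.24 (log2) in HFs (adjusted p = 0.000486), a change that fell to 0.99, just under the fold limit, without HFs replicate 3. In TFs the log2 fold change was 0.90 ± 0.23 (adjusted p = 0.00689), under the fold limit. In KFs it was -0.06 ± 0.23 (adjusted p = 0.851), and 0.17 without KFs replicate 3.

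*Ccl8* (ENSMUSG00000009185), which in the mouse acts through Ccr8 and draws T cells and eosinophils, was scarce in culture and rose in every organ. Cultured libraries had 0.104 to 0.381 CPM in HFc, 0.0748 to 0.353 in KFc and 0.370 to 0.788 in TFc. Transplanted libraries had 22.5, 32.4 and 16.5 CPM in HFs, 6.89, 4.26 and 1.43 in KFs, and 15.0, 16.4 and 15.4 in TFs. No transplanted library overlapped with a cultured one. The log2 fold change was 6.81 ± 0.64 in HFs (adjusted p = 4.9e-07), 4.54 ± 0.64 in KFs (adjusted p = 3.74e-05) and 4.74 ± 0.57 in TFs (adjusted p = 1.3e-05). Without KFs replicate 3, the value in KFs was 4.92.

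*Ccl11* (ENSMUSG00000020676), the eosinophil attractant eotaxin, acts through Ccr3. In culture, 2 of 3 HFc libraries had no count and the third had 0.208 CPM, while KFc libraries had 0.0335 to 0.299 CPM and TFc libraries 0.185 to 0.248. After transplantation it had 0.977, 3.36 and 1.00 CPM in HFs, 9.19, 7.68 and 1.85 in KFs, and 7.98, 22.2 and 23.5 in TFs. The ranges of transplanted and cultured libraries were apart in all 3 organs. The log2 fold change was 4.59 ± 1.02 in HFs (adjusted p = 0.00128), 5.01 ± 0.87 in KFs (adjusted p = 0.000235), 5.42 without KFs replicate 3, and 6.32 ± 0.89 in TFs (adjusted p = 6.1e-05). The wide errors go with the few counts of the cultured groups, which held 6 in HFc, 16 in KFc and 17 in TFc.

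*Ccl5* (ENSMUSG00000035042, RANTES), a chemokine that draws T cells and monocytes, ranged from no count in some cultured libraries to over 100 CPM in TFs. In culture it was at 0.346, 0.159 and 1.02 CPM in HFc, 0, 0.0353 and 0.235 in KFc, and 0, 0.166 and 0 in TFc. After transplantation it was at 6.19, 14 and 28.0 CPM in HFs, 1.59, 0.608 and 0.0922 in KFs, and 136, 169 and 113 in TFs. All TFs libraries lay above all HFs libraries and these above all others, while KFs overlapped with KFc. *Ccl5* rose by 11.26 ± 0.99 (log2) in TFs (adjusted p = 7.1e-07) and by 5.16 ± 0.74 in HFs (adjusted p = 2.93e-05). The TFc libraries held 4 counts in all against 8454 in TFs, a ratio of 2695 with a 95% counting interval of 1052 to 9894. In KFs the log2 fold change was 2.96 ± 1.22 (adjusted p = 0.0557). Without KFs replicate 3, it was 3.41 (adjusted p = 0.0269) and was then called.

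*Ccl3* (ENSMUSG00000000982) and *Ccl4* (ENSMUSG00000018930), the macrophage inflammatory proteins 1 alpha and 1 beta, are made mainly by leukocytes, and both stayed low. *Ccl3* had 1.98, 1.38 and 0.771 CPM in KFc and reached 1.02 CPM at most in the libraries of the other groups. *Ccl4* had 0.860, 2.50 and 1.81 CPM in KFc and 0.792, 0.0320 and 0 in KFs, which did not overlap, and reached 0.622 CPM at most in the heart and tail libraries. *Ccl4* was called lower in KFs, with a log2 fold change of -2.62 ± 1.04 (adjusted p = 0.0476). This call was lost on leaving out any 1 of 17 of the 18 libraries, with adjusted p values from 0.0514 to 0.136, KFs replicate 3 among them (-2.09, adjusted p = 0.0857), and was kept only without KFs replicate 1. It was also lost with no filter (adjusted p = 0.0633), with the replicate number as a block (adjusted p = 0.0634) and with only the groups compared (adjusted p = 0.155). The log2 fold change of *Ccl3* was -1.20 ± 0.97 in KFs (adjusted p = 0.319, and -0.67 without KFs replicate 3), -1.37 ± 1.09 in TFs (adjusted p = 0.338) and 0.20 ± 1.05 in HFs (adjusted p = 0.883).

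*Ccl9* (ENSMUSG00000019122), a ligand of Ccr1, was steady between libraries of a cultured group and differed between organs. It had 17.2, 19.1 and 18.5 CPM in HFc, 9.12, 11.5 and 10.5 in KFc, and 4.44, 4.81 and 4.58 in TFc. After transplantation it had 23.3, 22.8 and 41.7 CPM in HFs, 18.7, 14 and 6.92 in KFs, and 11.9, 24 and 11.3 in TFs. Transplanted libraries lay above cultured ones in heart and tail. Only the rise in TFs was called, at 1.77 ± 0.37 (log2, adjusted p = 0.00147), while the log2 fold change was 0.74 ± 0.35 in HFs (adjusted p = 0.0795) and 0.34 ± 0.35 in KFs (adjusted p = 0.439), and 0.64 without KFs replicate 3 (adjusted p = 0.0765).

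*Ccl19* (ENSMUSG00000071005), the ligand of Ccr7 that guides dendritic cells and naive T cells in lymphoid tissue, had no count in any HFc or TFc library and 1 count in KFc. It had 1.09, 3.28 and 5.18 CPM in HFs and 2.45, 5.58 and 5.35 in TFs, and 3 counts in all in KFs. Against a floor of 3 counts in each cultured library, the lower bounds of the rise were 26.7-fold in HFs (adjusted p = 9.0e-05) and 39.6-fold in TFs (adjusted p = 0.000146). The floor in these bounds was scaled by TMM factors and the level set against it was not, so the bounds are approximate. The near-identical gene *Gm2564* held 22, 77 and 195 counts in HFs, beside 20, 82 and 150 of *Ccl19*, and 24, 180 and 102 in TFs, beside 44, 117 and 117. With both genes summed, the adjusted p was 0.000269 in HFs and 0.000274 in TFs, and 0.128 in KFs.

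*Ccl20* (ENSMUSG00000026166), the ligand of Ccr6 that draws Th17 cells and immature dendritic cells, was called higher in TFs. It had 14.7, 27.5 and 8.96 CPM in TFs, and 0.0930, 0 and 0.185 in TFc. In kidney cells the values were 0.112, 0.458 and 0.637 CPM in KFc and 0.119, 0.512 and 0.922 in KFs, and the heart libraries held 4 counts in all in HFc and 5 in HFs. The lowest TFs library lay above every library of the other groups. The log2 fold change was 7.48 ± 0.95 in TFs (adjusted p = 2.2e-05) and 0.25 ± 0.80 in KFs (adjusted p = 0.818), and -0.33 without KFs replicate 3.

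**Figure D3:**
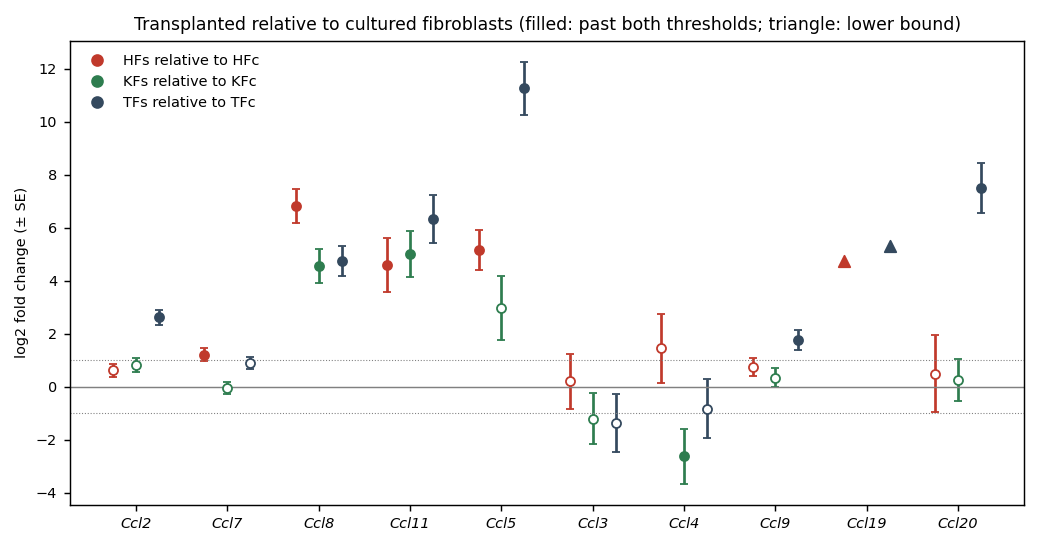
Log2 fold change of transplanted relative to cultured cells for each gene in heart, kidney and tail, with bars of 1 SE, filled points for genes past both thresholds, dotted lines at the fold limit and triangles for the lower bounds of *Ccl19*, which is not drawn for the kidney. The values range from -2.62 for *Ccl4* in KFs to 11.26 for *Ccl5* in TFs.

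The 3 responses were then compared with each other by interaction contrasts. The response of heart cells was called smaller than that of tail cells for 3 of the 10 genes and larger for none. The log2 differences were -6.98 ± 2.13 for *Ccl20*, -6.10 ± 1.54 for *Ccl5* and -2.001 ± 0.37 for *Ccl2* (adjusted p = 0.0278, 0.0103 and 0.00124), where 22.8% of all genes tested were called in this contrast. The *Ccl20* value rests on 4 counts in HFc, and without HFc replicate 1 or 2 its adjusted p was 0.0601 or 0.311, while that of *Ccl5* was 0.0645 without HFc replicate 3. The response of kidney cells was called smaller than that of tail cells for 2 of the 10 genes and larger for none. The differences were -7.23 ± 1.23 for *Ccl20* and -1.81 ± 0.36 for *Ccl2* (adjusted p = 0.00175 and 0.00512), against 11.1% of all genes called. Without KFs replicate 3 these differences were -7.80 and -1.80, and *Ccl7* was called as well at -0.71 (adjusted p = 0.0419). The kidney minus tail difference of *Ccl5* was -8.30 ± 2.66, with an adjusted p of 0.0575, and -7.83 without KFs replicate 3 (adjusted p = 0.0522). It passed in some alternatives, DESeq2 (adjusted p = 0.00011) and only the groups compared (adjusted p = 0.0485) among them, and not in the others. This difference rests on 8 counts in KFc and 4 in TFc. Between heart and kidney, the *Ccl7* response was higher in heart by 1.27 ± 0.33 (adjusted p = 0.0108), against 26.2% of all genes called, and by 1.06 without KFs replicate 3. The *Ccl8* response was 2.06 ± 0.85 higher in heart than in tail (adjusted p = 0.0943) and 2.27 ± 1.01 higher in heart than in kidney (adjusted p = 0.114), neither of which passed, although the first did without KFs replicate 3 (2.09, adjusted p = 0.0185). For *Ccl11* no pair of responses passed, with differences of -1.73 ± 1.64 between heart and tail, -1.32 ± 1.28 between kidney and tail, and -0.42 ± 1.75 between heart and kidney.

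In culture, few of the 10 genes were called between organs in the main fit. HFc had more *Ccl9* than TFc by 2.14 ± 0.37 (log2, adjusted p = 0.000243) and less *Ccl7* (-1.68 ± 0.24, adjusted p = 4.23e-05), which were 2 of 10 where 41.9% of all genes were called. KFc differed from TFc in the same 2 genes and in the same directions, by 1.23 ± 0.37 for *Ccl9* (adjusted p = 0.0155, and 0.0511 without TFc replicate 1) and -0.83 ± 0.23 for *Ccl7* (adjusted p = 0.0119), where 36.4% of all genes were called. HFc had less *Ccl4* than KFc (-4.68 ± 1.22, adjusted p = 0.00867) and less *Ccl7* (-0.85 ± 0.24, adjusted p = 0.0134, and 0.0556 without HFc replicate 3), again 2 of 10, where 29.2% were called. The *Ccl7* levels of the 3 cultured groups were ordered TFc, KFc, HFc with no overlap, and those of *Ccl9* in the opposite order, also with no overlap. In the main fit *Ccl2* did not pass in any of the 3 comparisons of cultured organs, with log2 differences between -0.27 and 0.02 and an SE of 0.26. With only the groups compared in the fit, *Ccl2* was called lower than in TFc in both HFc (-0.28, adjusted p = 0.0221) and KFc (-0.24, adjusted p = 0.0041). Every TFc library lay above every HFc and KFc library.

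After transplantation the tail cells had the highest mean level of *Ccl2*, *Ccl5*, *Ccl7*, *Ccl11*, *Ccl19* and *Ccl20*, and the heart cells the highest of *Ccl8* and *Ccl9*. HFs differed from TFs in 6 of 10 genes, where 23.1% of all genes were called. It was lower for *Ccl20* (-7.69 ± 0.98), *Ccl11* (-3.09 ± 0.72), *Ccl5* (-2.89 ± 0.56), *Ccl2* (-2.26 ± 0.27) and *Ccl7* (-1.36 ± 0.24), with adjusted p values of 3.65e-05, 0.00549, 0.00156, 1.7e-05 and 0.000631, and higher for *Ccl9* (1.11 ± 0.35, adjusted p = 0.0310). The *Ccl9* difference was not called without HFs replicate 3 (0.80, adjusted p = 0.153), without TFs replicate 1 (0.95, adjusted p = 0.120) or without TFs replicate 3 (0.91, adjusted p = 0.126). *Ccl8* was 0.83 ± 0.45 higher in HFs than in TFs (adjusted p = 0.212), although the ranges were apart, and was called without KFs replicate 3, whose spread enters the common fit (0.84, adjusted p = 0.0349). *Ccl19* did not pass between HFs and TFs (-0.26 ± 0.67, adjusted p = 0.834), and the libraries overlapped.

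KFs was lower than TFs in 6 of 10 genes, where 13.8% of all genes were called lower and 29.1% in either direction. The differences were -7.43 ± 0.74 for *Ccl5*, -5.06 ± 0.79 for *Ccl20*, -2.08 ± 0.26 for *Ccl2*, -1.82 ± 0.47 for *Ccl8* and -1.79 ± 0.24 for *Ccl7*, with adjusted p values of 4.0e-06, 0.000227, 3.92e-05, 0.00913 and 6.1e-05. *Ccl19* was the sixth, with 3 counts against 278, so that TFs was 117-fold higher with a counting interval of 39.5 to 569, and the log2 difference with *Gm2564* summed in was -5.39 (adjusted p = 0.00221). Without KFs replicate 3, the calls on the 6 genes held, with values of -6.94, -5.60, -2.04, -1.39 and -1.51 in the order of the first 5. With only the groups compared in the fit, the adjusted p of *Ccl8* was 0.10015. The KFs minus TFs difference of *Ccl11* was -1.44 ± 0.66 (adjusted p = 0.121), and -0.99 without KFs replicate 3 (adjusted p = 0.191), and the ranges overlapped.

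HFs was higher than KFs in 4 of 10 genes, where 14.2% of all genes were called higher and 33.2% in either direction. *Ccl5* was higher by 4.54 ± 0.69 (adjusted p = 0.000185), *Ccl8* by 2.65 ± 0.48 (adjusted p = 0.000715) and *Ccl9* by 1.31 ± 0.35 (adjusted p = 0.00985, and 0.0634 without HFs replicate 3). Without KFs replicate 3 these were 4.07, 2.24 and 0.98, and *Ccl11* was then called lower in HFs (-2.09, adjusted p = 0.00913). *Ccl19* had 252 counts in HFs against 3 in KFs, a ratio of 104 with a counting interval of 35.0 to 506, and with *Gm2564* summed in the log2 difference was 5.17 (adjusted p = 0.00252). With only the groups compared in the fit, the adjusted p was 0.0542 for *Ccl8* and 0.120 for *Ccl9*. *Ccl2* (-0.18 ± 0.26) and *Ccl7* (0.43 ± 0.23) did not pass. *Ccl2* was called lower in HFs without HFs replicate 3 (-0.64, adjusted p = 0.0273) and was at 0.09 without HFs replicate 2.

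**Figure D4:**
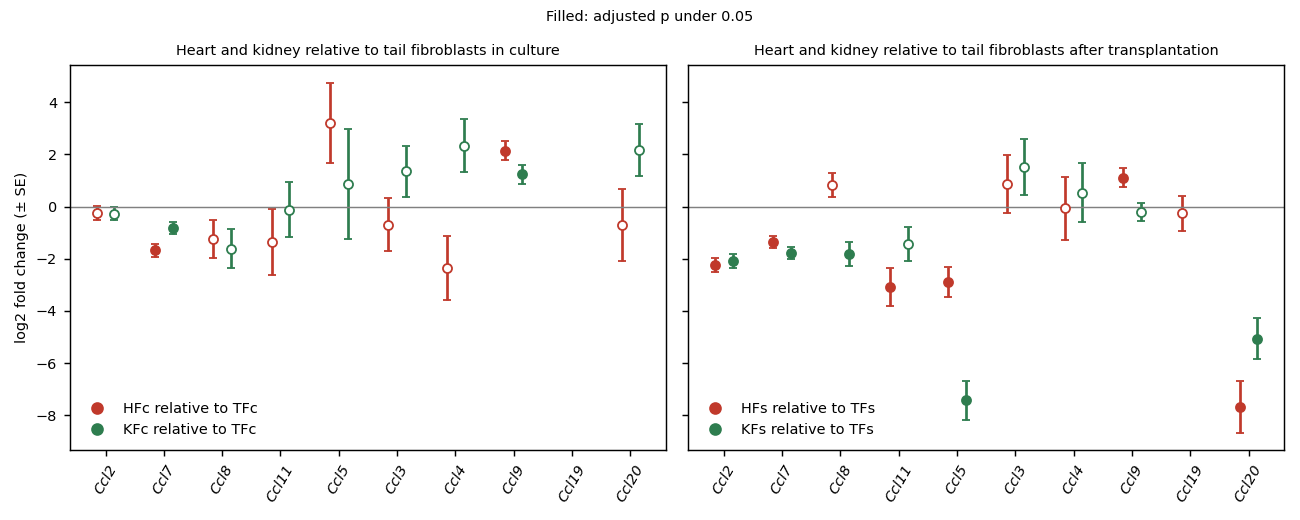
Log2 fold change of heart and kidney cells relative to tail cells in culture (left) and after transplantation (right), with bars of 1 SE and filled points for an adjusted p under 0.05. In culture *Ccl9* is higher and *Ccl7* lower than in the tail, and after transplantation the filled points lie below 0 except *Ccl9* in heart. *Ccl19* is drawn only for transplanted heart cells.

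The 4 genes of the first group on chromosome 11 were not all called in the same organs. *Ccl8* and *Ccl11* were called higher in all 3 organs, *Ccl7* in HFs and *Ccl2* in TFs, so 3 of 4 were called in HFs and TFs and 2 of 4 in KFs. Of all genes tested, 18.3% were called higher in HFs, 11% in TFs and 14.7% in KFs. *Ccl7* in TFs (0.90, adjusted p = 0.00689) and *Ccl2* in KFs (0.81, adjusted p = 0.0167) passed the p threshold but not the fold limit. The *Ccl7* responses of heart and tail were not called as different (0.32 ± 0.33, adjusted p = 0.534). In the second group *Ccl5* was called in HFs and *Ccl5* and *Ccl9* in TFs, while their neighbours *Ccl3* and *Ccl4* were not called higher in any organ. The median log2 fold change was 2.90 in HFs, 2.67 in KFs and 3.68 in TFs for the first group, and 1.10, -0.43 and 0.47 for the second. The KFs medians were 2.86 and -0.02 without KFs replicate 3.

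Promoter sequences were shown for the genes with a match to an inflammatory motif. RefSeq sequence of GRCm38.p6 was at hand for *Ccl3*, *Ccl8*, *Ccl9*, *Ccl19* and *Ccl20*, and the 250 bases before the start were searched on both strands for the kappaB motif, for the AP-1 motif TGANTCA and for the STAT motif, TTC and GAA with N at 3 positions between them. The lines show the gene strand with the match in capitals, and the *Ccl9* stretches overlap each other.
Ccl20, kappaB: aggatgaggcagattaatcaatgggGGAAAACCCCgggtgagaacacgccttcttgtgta
Ccl9, kappaB: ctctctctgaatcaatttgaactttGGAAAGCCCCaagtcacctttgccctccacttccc
Ccl9, AP-1: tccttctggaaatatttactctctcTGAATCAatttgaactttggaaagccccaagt

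The *Ccl20* match lies 71 to 80 bases before the start (stretch chr1:83116661-83116720, plus strand). In *Ccl9* the kappaB match lies 26 to 35 bases before the start (stretch chr11:83578637-83578696, minus strand) and the AP-1 match 47 to 53 bases before it (stretch chr11:83578658-83578714). *Ccl20* and *Ccl9* were both called higher in TFs and in no other transplant comparison. For *Ccl9* the interaction contrasts did not pass in the main fit. The response of heart minus tail was -1.03 ± 0.50 (adjusted p = 0.154) and that of kidney minus tail -1.43 ± 0.51 (adjusted p = 0.0831). Of 32536 promoters searched in the same way, 3.92% held the kappaB motif, 6.73% the AP-1 motif and 7.04% the STAT motif. None of the 3 motifs was found in these windows of *Ccl3*, *Ccl8* and *Ccl19*, of which *Ccl8* and *Ccl19* were also called higher in TFs. *Ccl2* was likewise called in TFs alone, but its promoter sequence was not at hand. A link between these matches and the changes was not tested.

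Among the other genes of the pathway, the CC receptor list included *Ccr2*, the receptor of *Ccl2* and *Ccl7*, and *Ccrl2*, a chemokine-binding receptor of a related kind. Of 15 receptors listed, 5 were tested. *Ccr2* and *Ccrl2* were called higher in all 3 organs, and *Ackr4* was lower in KFs. *Ccr2* had at most 0.186 CPM in any cultured library, and 1.95 to 8.05 CPM in HFs, 0.415 to 5.66 in KFs and 1.57 to 2.51 in TFs. *Ccrl2* had up to 0.201 CPM in culture and 0.705 to 1.69 CPM in HFs, 0.323 to 3.37 in KFs and 0.594 to 1.28 in TFs.

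Of 14 other CC chemokines listed, 13 were in the table and 6 were tested. *Ccl28*, an attractant of mucosal lymphocytes, was called higher in HFs, while *Ccl25* and *Ccl17* were lower, and *Ccl17* and *Ccl12* were lower in KFs. *Ccl12*, a mouse ligand of Ccr2, had no count in TFc and 0.0914 to 0.286 CPM in TFs, where it was called higher. The median log2 fold change of the 6 was -0.42 in HFs, -0.37 in KFs and 0.01 in TFs.

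Of 6 inducing cytokines, 3 were tested. *Il1b* was called higher in all 3 organs, from at most 0.127 CPM in any cultured library to 0.217 to 7.36 CPM in HFs, 0.0922 to 13.4 in KFs and 1.05 to 3.63 in TFs. *Il1a* was called higher in KFs, at 0.138 to 2.72 CPM, and *Tnf* was not called in any organ.

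The transducers of inflammatory signals, 23 receptors, adaptors, kinases and transcription factors, were all tested. 6 were called higher in HFs, 4 in KFs and 9 in TFs, and 2, 1 and 1 lower, beside the shares of all genes given above, 18.3%, 14.7% and 11% higher and 9.33%, 7.99% and 5.53% lower. *Ikbkg*, which encodes a regulatory subunit of the kinase complex that activates NF-kappaB, was the gene called lower in all 3 organs, at -1.25 ± 0.13 in HFs, -1.53 ± 0.13 in KFs and -1.62 ± 0.13 in TFs, and *Il17ra*, the receptor of interleukin 17, was lower in HFs (-1.19 ± 0.19). *Irf1*, an interferon-induced transcription factor, rose by 2.49 ± 0.21 in HFs, 2.48 ± 0.20 in KFs and 2.41 ± 0.20 in TFs. *Nfkbia*, the inhibitor of NF-kappaB that NF-kappaB itself induces, rose by 1.75 ± 0.19, 2.12 ± 0.19 and 2.93 ± 0.20 in the same order. *Il1r1*, the receptor of interleukin 1, rose by 2.29 ± 0.27, 2.26 ± 0.27 and 1.58 ± 0.26. The NF-kappaB subunits *Nfkb1* (1.41 ± 0.14) and *Nfkb2* (1.22 ± 0.14) were called in TFs, and *Relb* in TFs and HFs.

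Of 5 regulators of the decay of short-lived mRNA, *Zfp36*, which binds AU-rich elements, rose by 1.996 ± 0.33 in HFs, 1.84 ± 0.33 in KFs and 2.03 ± 0.34 in TFs, and *Zfp36l1* was also called higher in all 3. *Zc3h12a*, an endonuclease, was called higher in TFs (1.52 ± 0.23, adjusted p = 0.000106).

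Genes with the most similar pattern were sought for the 3 chemokines with the highest mean log2(CPM + 1), by the root mean square difference of the 6 centred group means. For *Ccl2* they were *Apol9b* (0.228), *Ldb2* (0.265) and *Acod1* (0.278). For *Ccl7* they were *Best1* (0.224), *Papolb* (0.228) and *Macrod1* (0.251), and for *Ccl9* they were *Phactr1* (0.203), *Gm10855* (0.204) and *Ebf3* (0.211). This scale compresses changes at low levels, so near patterns need not have like fold changes. *Acod1* had group means of 0.0816 in TFc and 2.29 in TFs on this scale, while *Ccl2* had 59.4 and 364.5 CPM.

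Markers of other cells moved with some of these results, and their part in them was not tested. The summed level of 14 leukocyte markers was 95.4 to 106 CPM in HFc and 84.7 to 151 in HFs, 454 to 483 in KFc and 14.5 to 149 in KFs, and 192 to 226 in TFc and 45.0 to 51.6 in TFs. Of the 10 markers tested, none was called in HFs, 8 were lower in KFs and 5 lower in TFs, and none was called higher in any organ. *S100a8*, *S100a9*, *Cd3e* and *Cd79a* had too few counts to be tested. *S100a8* and *S100a9* had no count in culture, and reached 15 and 41 counts in a KFs library, 7 and 4 in HFs, and 7 and 7 in TFs. *Ccr2* and *Il1b*, called higher in all 3 organs, are not in this marker list. *Ptprc*, which encodes CD45, was present in culture at 4.00 to 15.9 CPM and in sorted cells at 0.277 to 10.6 CPM. *Ccl3* and *Ccl4* were highest in KFc, the group with the highest leukocyte sum. In TFs, where 7 of the listed chemokines were called higher, the leukocyte sum was lower than in TFc. *Lyz2* was the largest part of the TFc sum, with a mean of 132.5 CPM in TFc and 24.8 in TFs. *Ptprc*, *Itgam* and *Coro1a* were not called in TFs. Whether leukocytes contributed to any of these chemokine levels was not tested. All 8 proximal tubule markers were called higher in HFs and TFs and 7 in KFs, with sums of 63.9 to 991 CPM in HFs, 50.8 to 107 in KFs and 108 to 302 in TFs, and 14.8 to 103 in culture. The highest sum, in HFs replicate 2, went with the highest *Ccl8* and *Ccl11* and the lowest *Ccl2* and *Ccl7* of the HFs libraries. The highest sum of the KFs libraries, 107 CPM in replicate 1, also went with their highest *Ccl8* and *Ccl11* (6.89 and 9.19 CPM). That of the TFs libraries, 302 CPM in replicate 1, instead went with their lowest *Ccl8* and *Ccl11* (15.0 and 7.98 CPM). Of 6 endothelial markers, 5 were called higher in HFs, 3 in KFs and 2 in TFs, 1 was lower in KFs, and their sum lay between 28.7 and 60.5 CPM in all libraries.

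**Figure D5:**
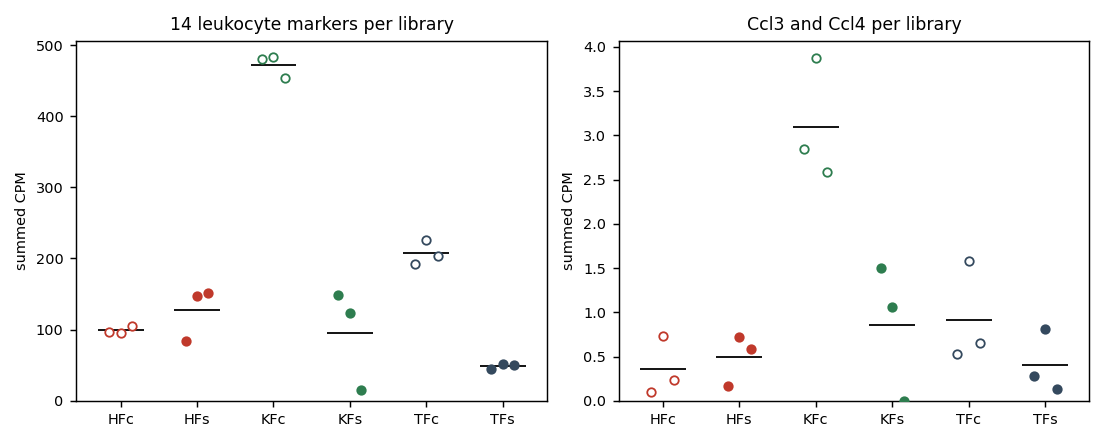
Summed CPM of 14 leukocyte markers (left) and of *Ccl3* and *Ccl4* (right) in each library of the 6 groups, with open points for cultured and filled points for transplanted cells and a bar at the mean of 3 libraries. Both sums are highest in KFc, and KFs replicate 3 has the lowest value in each panel.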

How the data were processed

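The authors aligned single-end 75-base reads and deposited RSEM expected counts per gene, which are whole numbers without normalization. The study's methods name GRCm38 and Bowtie2, whereas the labels list mm9 and Bowtie, and the annotation release is not given in the sources used here. Symbols and positions came from GENCODE for GRCm38, which held 37607 of 38924 identifiers. Groups came from the sample titles.

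Counts were analysed with edgeR 4.0.16 in R 4.3.3 (filterByExpr, TMM, glmQLFit, glmQLFTest) on all 18 libraries with 1 mean for each group, with Benjamini-Hochberg adjustment over 16577 genes. CPM values are counts over the library total without TMM scaling. The SE is the log2 fold change divided by the square root of F. The biological coefficient of variation was 0.24. On simulated data for these libraries, 195 of 200 changed genes were found among 14735, with 14 false calls. The simulation covered HFs relative to HFc alone, with the same fixed dispersion for every gene. Changed genes were drawn only from those above a minimum mean count in HFc, so it does not cover genes near 0 counts in culture. Count ratios have 95% exact intervals that cover counting error only. Library totals of 17927838 to 32245168 limit precision for the genes with few counts.

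The 10 genes, all named, and the other lists were chosen with earlier results of these data known. Similar genes were the 3 nearest of each of the 3 members with the highest level. Alternatives were DESeq2 1.42.0, its size factors or library size alone, no filter or a mean of 10 counts, a replicate block, only the groups compared, other thresholds, and each library left out. Results for some listed genes are not reported here. Summing *Ccl19* with *Gm2564* was chosen after seeing the data. Figures were made with Python 3.11.15 and matplotlib 3.10.9.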

Additional observations from a re-analysis of the deposited data

Results flagged for a closer look

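The response to transplantation differed between organs for 4 of the genes by the interaction term of edgeR's quasi-likelihood test. The contrast of heart and tail called 3 of the 10 genes, where 22.8% of all genes tested were called. That of kidney and tail called 2, against 11.1% of all genes, and that of heart and kidney 1, against 26.2%. For *Ccl20* the response of heart minus that of tail was -6.98 and that of kidney minus tail -7.23 on the log2 scale. For *Ccl2* the corresponding differences were -2.001 and -1.81. For *Ccl5* the difference of heart minus tail was -6.10, and for *Ccl7* that of heart minus kidney was 1.27. The heart minus tail call of *Ccl20* was lost without HFc replicate 1 or 2, and that of *Ccl5* without HFc replicate 3.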

How the results depend on the processing

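Leaving out each library in turn gave 4 to 5 genes called in HFs, 2 to 3 in KFs (3 higher and 0 lower without KFs replicate 3) and 7 in every case in TFs relative to culture. Between organs the counts were 2 to 3 for HFc and TFc, 1 to 4 for KFc and TFc, 1 to 5 for HFc and KFc, 5 to 7 for HFs and TFs, 6 in every case for KFs and TFs, and 4 to 5 for HFs and KFs. Responses that differed numbered 2 to 4 for heart and tail, 2 to 6 for kidney and tail, and 1 to 4 for heart and kidney. The counts of 4 for KFc and TFc and of 5 for HFc and KFc came without KFs replicate 3, and those of 6 and 4 for responses of kidney and tail and of heart and kidney without KFs replicate 1. At an adjusted p threshold of 0.01, KFc and TFc differed in 0 genes (edgeR, 2 at the main threshold), HFc and KFc in 1, and the responses in 1 for heart and tail and in 0 for heart and kidney. A log2 limit of 1 left 1 gene for KFc and TFc and 1 for HFc and KFc. Fitting only the groups compared gave 5 for KFc and TFc, 4 for HFc and KFc, and 2 for HFs and KFs. DESeq2 gave 4 for KFc and TFc, 4 for HFc and KFc, and 6 and 4 responses that differed between kidney and tail and between heart and kidney. The cause of these shifts was not tested.

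Replicate numbers did not pair the samples, with correlations of deviations between -0.042 and 0.045. Using that number as a block, 5 genes were called in HFs, 2 in KFs and 7 in TFs, and *Ccl4* was lost in KFs (adjusted p = 0.0634).

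Of 120 values of single genes in the 12 comparisons, 26 changed sign in 1 or more alternatives, and none of these had been called. The HFc minus KFc difference of *Ccl2*, 0.016, became -0.0208 with DESeq2, -0.0204 with its size factors, -0.0765 with library size alone, -0.0403 without a filter, -0.0324 with a mean of 10 counts and -0.0338 with only those groups, and lay between -0.166 and 0.106 with single libraries left out. With single libraries left out, the transplant values of *Ccl3* in HFs lay between -0.290 and 1.26, and in KFs those of *Ccl9* between -0.0316 and 0.642, of *Ccl20* between -0.332 and 0.737 and of *Ccl7* between -0.2565 and 0.173. *Ccl19* lay between -0.769 and 0.179 for HFs minus TFs, *Ccl2* between -0.639 and 0.0895 for HFs minus KFs, and the response of *Ccl11* between -2.53 and 2.31 for heart minus tail and between -1.21 and 3.63 for heart minus kidney.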
